A study of Mus musculus with 10 samples.

Results

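The sarcoplasmic reticulum (SR) calcium handling genes described here are 10 genes chosen by name, *Ryr2*, *Casq2*, *Trdn*, *Asph*, *Hrc*, *Jph2*, *Atp2a2*, *Pln*, *Sln* and *Slc8a1*, out of 57185 genes with counts in bulk RNA-seq of mouse heart. The tissue was apical ventricle of 5 MLPKO and 5 cRADΔ/Δ-MLPKO male mice (the latter MLPKO-cRADKO in the labels), and 1 polyA-selected library was made per mouse. Both groups lacked muscle LIM protein (MLP, the product of *Csrp3*), a model of dilated cardiomyopathy, carried floxed alleles of *Rrad*, and received 1 intraperitoneal dose of tamoxifen (100 mg per kg) at 10 weeks of age. The cRADΔ/Δ-MLPKO mice also carried MYH6-MerCreMer, a tamoxifen-activated Cre driven by a cardiomyocyte promoter, which deletes *Rrad*, the gene for the L-type calcium channel inhibitor RAD. Hearts were taken 1 month after tamoxifen and are labelled 16 weeks of age. The controls carried no Cre, so the presence of active Cre and the loss of RAD cannot be told apart, and no mouse with intact MLP was among the samples.

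At each heartbeat, calcium entering through L-type channels opens ryanodine receptors in the SR membrane, and the calcium released from the store starts contraction. The SR calcium pump SERCA2a takes most of it back during relaxation, held in check by phospholamban and sarcolipin, while the sodium-calcium exchanger removes the rest across the cell membrane. Inside the store, calcium is buffered by calsequestrin, which is tied to the release channel by triadin and junctin. In failing hearts this cycle is a familiar site of altered expression, above all through less SERCA2a relative to phospholamban and more exchanger, which is why the pump, its inhibitor and the exchanger are followed most closely here.

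Library totals lay between 33457406 and 49965101 counts in MLPKO mice, and between 33759811 and 46280882 in cRADΔ/Δ-MLPKO mice. A gene was tested if 6 or more of the 10 mice had over 10 counts of it and it had no Gm or Rik name. This kept 13453 genes and 9 of the 10 SR genes. Levels are CPM (counts scaled to a common library size, with TMM factors), and fold changes are log2 of cRADΔ/Δ-MLPKO over MLPKO from edgeR's quasi-likelihood test, with p adjusted by Benjamini-Hochberg over all 13453 genes. One library, MLPKO mouse 2, stood apart on the first principal component, at 55.7 against −24.0 to 22.5 in the other 9 mice. Results for *Hrc*, *Pln*, *Ryr3*, *Sypl2* and the ratios with *Hrc* or *Pln* are given with and without it. *Rrad* was 223 ± 66.1 CPM in MLPKO and 171 ± 29.9 CPM in cRADΔ/Δ-MLPKO (SD, n = 5), with overlapping mice (log2 fold change −0.38, SE 0.20, edgeR adjusted p = 0.29). The count covers every cell type of the ventricle and exons of *Rrad* that may lie outside the deleted part, so it does not check the cardiomyocyte deletion. *Csrp3* was also counted in both genotypes, at 1776 ± 917 and 840 ± 197 CPM (log2 fold change −1.08, SE 0.29, edgeR adjusted p = 0.0667, 0.0362 with DESeq2 and 0.0313 without MLPKO mouse 4), although both carry the MLPKO allele. MLPKO mouse 2 had 3261 CPM of *Csrp3*, against 1009 to 1956 CPM in the other MLPKO mice. On leaving out single mice, the log2 fold change of *Csrp3* ranged from −1.23 to −0.74 and its edgeR adjusted p from 0.0313 to 0.149.

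None of the 9 tested SR genes passed an adjusted p of 0.05 between the genotypes, where 2.74% of all genes tested did. The same count of 0 was found with DESeq2, which called 9.65% of all genes, and with limma-voom, which called 2.53%. At an unadjusted p under 0.05, *Asph*, *Jph2* and *Slc8a1* passed with each of the 3 tools, which is 3 of 9 beside 21.6% of all genes with edgeR. *Asph* and *Jph2* were lower in cRADΔ/Δ-MLPKO, as were 11.5% of all genes at that p, and *Slc8a1* was higher, as were 10.1%. The median log2 fold change of the 9 genes was −0.11, against 0.01 for all genes, and the median size was 0.14 for both. *Atp2a2*, *Slc8a1* and *Hrc* had fold changes above 0 and the other 6 lay below 0, where 47.9% of all genes lay below 0. For 8 of the 9 the log2 fold change was under 0.25 in size before rounding, as for 73.1% of all genes. In no SR gene were the mice of the 2 genotypes fully separated, as they were in 6.62% of all genes. In ventricular tissue, fewer cardiomyocytes and less RNA per cardiomyocyte cannot be told apart.

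**Figure D1:**
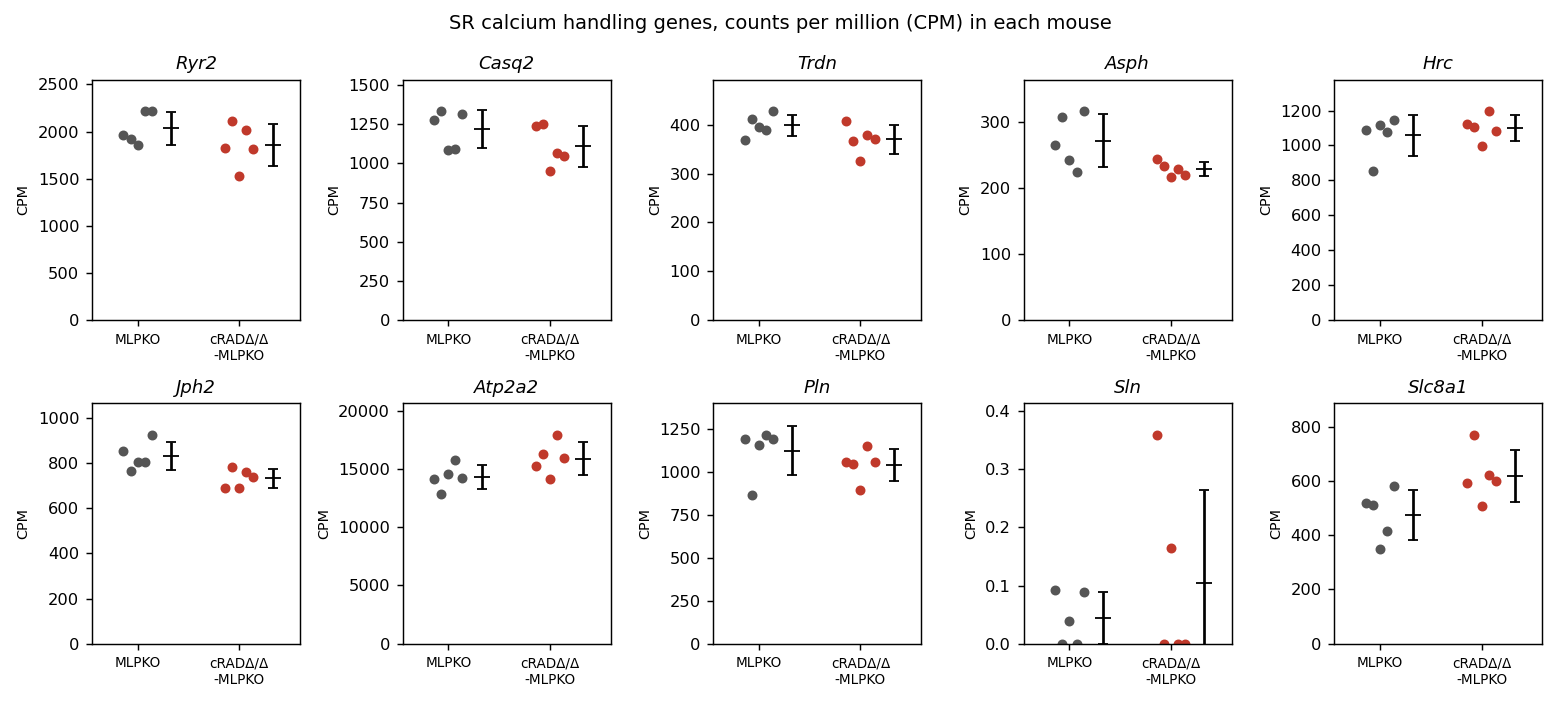
CPM of the 10 SR calcium handling genes in each mouse, with a separate vertical axis from 0 for each gene. Points are mice 1 to 5 of each genotype from left to right, and the black bar is the mean ± SD of 5 mice. The genotypes overlap in every panel, with *Slc8a1* and *Atp2a2* higher in mean and *Jph2* and *Asph* lower in mean in cRADΔ/Δ-MLPKO.

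Levels were also divided by exon length, taken as all annotated exons of a gene merged. This length can exceed that of the transcripts made in heart, so the order between genes also depends on the annotation. Compared per kilobase of merged exon, the mean levels had the same order in both genotypes. In MLPKO, *Atp2a2* (the SERCA2 pump) stood at 1170 ± 84.6 CPM per kb, followed by *Hrc* at 406 ± 45.4, *Casq2* at 214 ± 21.5, *Pln* at 183 ± 23.6, *Jph2* at 120 ± 8.79, *Ryr2* at 67.1 ± 5.66, *Slc8a1* at 25.05 ± 4.85, *Trdn* at 19.0 ± 1.06 and *Asph* at 14.6 ± 2.16. In cRADΔ/Δ-MLPKO the level per kb was 1298 ± 114 for *Atp2a2*, 423 ± 27.9 for *Hrc*, 194 ± 22.8 for *Casq2*, 169 ± 15.2 for *Pln*, 106 ± 5.95 for *Jph2*, 61.4 ± 7.38 for *Ryr2*, 32.5 ± 5.03 for *Slc8a1*, 17.6 ± 1.42 for *Trdn* and 12.3 ± 0.583 for *Asph*. Most neighbours in this order did not overlap over the 5 mice of a genotype. The exceptions were *Casq2* and *Pln* in both genotypes, and *Slc8a1* and *Trdn* in MLPKO alone. The 10 genes together took 1.87% to 2.29% of all counts in MLPKO and 2.15% to 2.54% in cRADΔ/Δ-MLPKO, most of it from *Atp2a2* at 1.21% to 1.56% and 1.5% to 1.8%. *Sln* was close to absent in both genotypes.

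**Figure D2:**
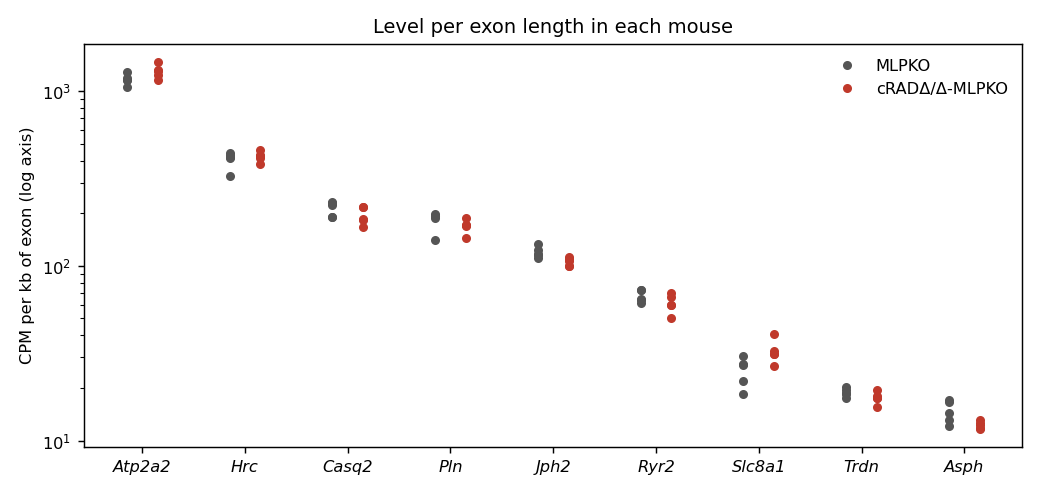
Level of the 9 tested SR genes in each mouse as CPM per kb of merged annotated exons, on a log axis. Genes are ordered by the mean in MLPKO, with 1 point per mouse and genotypes side by side. The genes span from about 12.3 CPM per kb for *Asph* to 1298 for *Atp2a2* in cRADΔ/Δ-MLPKO means, and the order is the same in both genotypes.

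The release channel and its partners in the SR lumen were examined first. *Ryr2* (chr13:11567988-12121870, minus strand, GRCm39) encodes the cardiac ryanodine receptor, the channel through which the SR releases calcium. Its level in MLPKO mice 1 to 5 was 1960.2, 1921, 1852, 2217 and 2215 CPM, and in cRADΔ/Δ-MLPKO mice 1 to 5 it was 1820.3, 2111, 1532, 2020.2 and 1811 CPM. In cRADΔ/Δ-MLPKO, 3 mice lay below the lowest MLPKO mouse and the others lay inside its range. Its log2 fold change was −0.13 (SE 0.09, 95% interval −0.33 to 0.07, edgeR adjusted p = 0.455).

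*Casq2* (chr3:101993234-102056307, plus strand) encodes cardiac calsequestrin, the main calcium buffer of the SR lumen. It was 1277, 1334, 1083, 1094 and 1317 CPM in MLPKO and 1239.5, 1249, 949, 1065 and 1048 CPM in cRADΔ/Δ-MLPKO. Below the MLPKO minimum lay 3 cRADΔ/Δ-MLPKO mice, and the others lay inside the MLPKO range. The log2 fold change of *Casq2* was −0.14 (SE 0.10, 95% interval −0.34 to 0.07, edgeR adjusted p = 0.437), close to that of *Ryr2*. The ratio of *Casq2* to *Ryr2* within a mouse, which does not depend on library size, was 65.1, 69.5, 58.5, 49.3 and 59.5 *Casq2* counts per 100 *Ryr2* counts in MLPKO and 68.1, 59.2, 61.9, 52.7 and 57.9 in cRADΔ/Δ-MLPKO. The mean log2 ratios differed by −0.01 (exact permutation test over all splits of the mice into 5 and 5, two-sided, p = 0.96), and the sign of this difference changed on leaving out single mice.

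*Trdn* (chr10:32956550-33356376, plus strand) encodes triadin, which anchors calsequestrin at the release channel. Its level was 369, 411, 395, 389.7 and 428 CPM in MLPKO and 408, 368, 325, 379 and 371 CPM in cRADΔ/Δ-MLPKO. The range of *Trdn* was narrow in both genotypes and overlapped (log2 fold change −0.11, SE 0.07, 95% interval −0.26 to 0.04, edgeR adjusted p = 0.396). *Asph* (chr4:9448069-9669357, minus strand) gives rise to junctin, the second anchor of calsequestrin, and also to junctate and to an aspartyl hydroxylase, which counts per gene do not separate. It was 266, 307, 243, 224 and 316 CPM in MLPKO and 244, 233, 217, 229 and 219 CPM in cRADΔ/Δ-MLPKO. The cRADΔ/Δ-MLPKO mice lay close together at the low end of the MLPKO range, and MLPKO mice 3 and 4 lay among them. The log2 fold change of *Asph* was −0.25 (SE 0.09, 95% interval −0.45 to −0.04), and with an edgeR adjusted p of 0.15 it did not pass over all genes. Without MLPKO mouse 4 the adjusted p was 0.0529.

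*Hrc* (chr7:44984681-44988401, plus strand) encodes the histidine-rich calcium binding protein, a second luminal buffer that binds both triadin and SERCA2. Its level was 1090.4, 851, 1118, 1079 and 1147 CPM in MLPKO and 1125, 1104, 996, 1197 and 1082 CPM in cRADΔ/Δ-MLPKO. MLPKO mouse 2 was far below the other MLPKO mice, which lay within the cRADΔ/Δ-MLPKO range. For *Hrc* the log2 fold change was 0.06 (SE 0.09, 95% interval −0.13 to 0.25, edgeR adjusted p = 0.744), and −0.01 without MLPKO mouse 2. The ratio of *Hrc* to *Casq2*, the pair of luminal buffers, differed by 0.20 in mean log2 between the genotypes (exact permutation p = 0.151, adjusted over 4 ratios 0.302, n = 5) and by 0.09 without MLPKO mouse 2. In this ratio 3 cRADΔ/Δ-MLPKO mice lay above every MLPKO mouse, and the others lay inside the MLPKO range.

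*Jph2* (chr2:163178162-163239920, minus strand) encodes junctophilin-2, which holds the SR against the T-tubule so that L-type channels face the release channels. It was 852, 767, 803, 807 and 925 CPM in MLPKO and 690.4, 782, 691, 762 and 738 CPM in cRADΔ/Δ-MLPKO. The levels of *Jph2* overlapped through MLPKO mouse 2 and cRADΔ/Δ-MLPKO mouse 2, and the other cRADΔ/Δ-MLPKO mice lay below every MLPKO mouse. This gave a log2 fold change of −0.18 (SE 0.07, 95% interval −0.33 to −0.03, edgeR adjusted p = 0.144, DESeq2 adjusted p = 0.0663).

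Calcium uptake rests on *Atp2a2* (chr5:122591575-122640903, minus strand), which encodes SERCA2. Its level was 14152, 12881, 14566, 15775 and 14214 CPM in MLPKO and 15223, 16243, 14142, 17924 and 15889 CPM in cRADΔ/Δ-MLPKO. Above the highest MLPKO mouse lay 3 cRADΔ/Δ-MLPKO mice, and the others lay inside the MLPKO range. The log2 fold change of *Atp2a2* was 0.15 (SE 0.08, 95% interval −0.03 to 0.33, edgeR adjusted p = 0.321), an interval that reaches from 0.979-fold to 1.26-fold.

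*Pln* (chr10:53199622-53223512, plus strand) encodes phospholamban, the membrane peptide that lowers the calcium affinity of SERCA2 until it is phosphorylated. It was 1191, 869, 1159, 1218 and 1195 CPM in MLPKO and 1058, 1045, 895, 1154 and 1062 CPM in cRADΔ/Δ-MLPKO. The cRADΔ/Δ-MLPKO mice all lay below 4 of the MLPKO mice and above the remaining one, MLPKO mouse 2. Its log2 fold change was −0.11 (SE 0.10, 95% interval −0.33 to 0.11, edgeR adjusted p = 0.562), and −0.19 without MLPKO mouse 2 (adjusted p = 0.158).

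*Pln* and *Atp2a2* had fold changes of opposite sign, and their ratio was compared within each mouse. In MLPKO there were 8.42, 6.75, 7.96, 7.72 and 8.41 *Pln* counts per 100 *Atp2a2* counts, and in cRADΔ/Δ-MLPKO there were 6.95, 6.43, 6.33, 6.44 and 6.69. Of the 5 cRADΔ/Δ-MLPKO mice, 4 lay below the lowest MLPKO mouse, which was again mouse 2, and the spread within cRADΔ/Δ-MLPKO was narrow. The mean log2 ratio was −3.68 ± 0.13 in MLPKO and −3.93 ± 0.05 in cRADΔ/Δ-MLPKO, a difference of −0.25 (exact permutation p = 0.0159, two-sided, n = 5, where the smallest possible p was 0.00794). Adjusted over the 4 ratios computed, p was 0.0635, which does not pass 0.05. Without MLPKO mouse 2 the difference was −0.31 with an adjusted p of 0.0317 in the exact permutation test, and with any other mouse left out it did not pass. The libraries do not show how much of either protein was made or how much phospholamban was phosphorylated.

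*Sln* (chr9:53742537-53761846, plus strand) encodes sarcolipin, the second peptide inhibitor of the pump, which in mice belongs to atrial and slow skeletal muscle. Its raw counts were 4, 0, 2, 0 and 4 in MLPKO and 12, 0, 6, 0 and 0 in cRADΔ/Δ-MLPKO. Of the 10 mice, 5 had no count, which with 3 counts as the limit allows 0.0648 to 0.0897 CPM in those 5 libraries. Only 1 mouse exceeded 10 counts, so *Sln* was not tested and no fold was formed. That mouse, cRADΔ/Δ-MLPKO mouse 1, also had the highest levels of the atrial light chain genes *Myl7* and *Myl4*, at 4.55 and 19.6 CPM against at most 1.87 and 5.29 CPM in the other mice. The other atrial markers did not peak in that mouse over all 10 mice, with *Nppa* at 413, *Kcnj3* at 48.4, *Kcna5* at 14.3 and *Dkk3* at 14.4 CPM, each exceeded in at least 1 other mouse, and *Bmp10* at 2 counts. Within cRADΔ/Δ-MLPKO, that mouse was the highest for *Dkk3*, against 4.46 to 7.70 CPM in the others, and the lowest for *Kcna5*. Only MLPKO mouse 2 exceeded it in *Dkk3*, at 15.3 CPM. In cRADΔ/Δ-MLPKO mouse 3, with 6 counts of *Sln*, *Myl7* was 0.601 CPM. The part of atrial tissue in the *Sln* counts was not tested.

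*Slc8a1* (chr17:81680534-82045891, minus strand) encodes NCX1, the sodium-calcium exchanger of the cell membrane, and had the largest log2 fold change in size of the 9 tested genes. Its level was 520, 512, 349, 417 and 582 CPM in MLPKO and 593, 770.3, 507, 620.3 and 598 CPM in cRADΔ/Δ-MLPKO. Above every MLPKO mouse lay 4 of the cRADΔ/Δ-MLPKO mice, and mouse 3 lay inside the MLPKO range. Its log2 fold change was 0.38 (SE 0.14, 95% interval 0.07 to 0.68, or 1.05-fold to 1.61-fold), with an unadjusted p of 0.0205 and an adjusted p of 0.148 in edgeR. The adjusted p ranged from 0.0789 with DESeq2 to 0.264 without cRADΔ/Δ-MLPKO mouse 2, so *Slc8a1* did not pass in any alternative run. Relative to *Atp2a2*, *Slc8a1* stood at 3.67, 3.97, 2.40, 2.64 and 4.09 counts per 100 *Atp2a2* counts in MLPKO and 3.90, 4.74, 3.58, 3.46 and 3.77 in cRADΔ/Δ-MLPKO. The mean log2 ratios differed by 0.24 (exact permutation p = 0.262, adjusted 0.349, n = 5), within the spread of the mice.

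**Figure D3:**
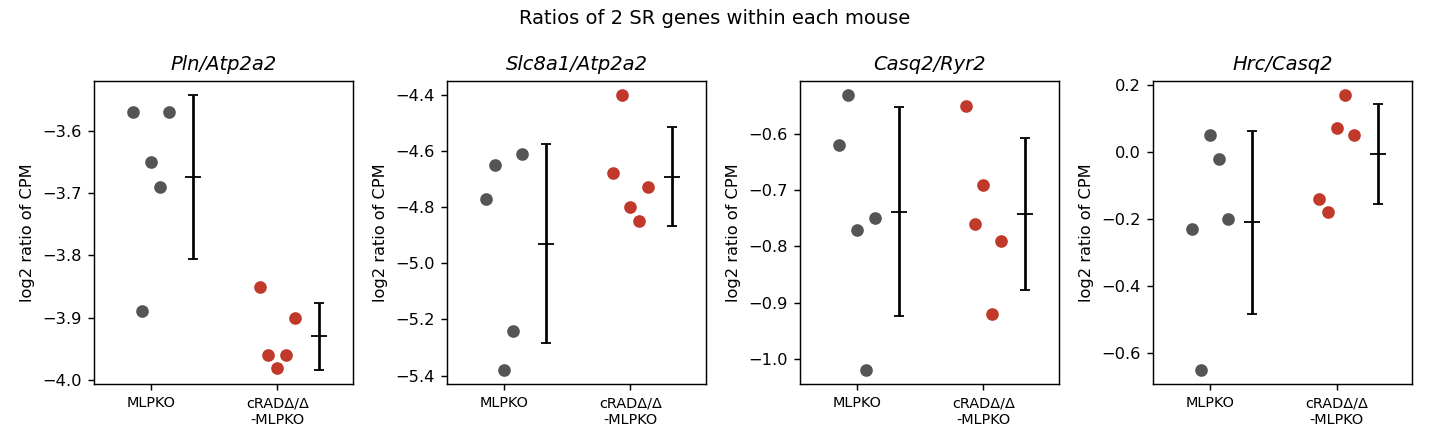
Log2 ratios of CPM of 2 SR genes within each mouse for the 4 ratios tested, with mean ± SD of 5 mice per genotype. The vertical axes do not start at 0 and differ between panels. *Pln*/*Atp2a2* is lower in cRADΔ/Δ-MLPKO (−3.93) than in MLPKO (−3.68) with 1 MLPKO mouse among them, and the other 3 ratios overlap, with 3 cRADΔ/Δ-MLPKO mice above every MLPKO mouse in *Hrc*/*Casq2*.

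Across the 10 mice, with the genotype means removed, the log2 CPM of *Atp2a2* correlated with that of *Pln* at r = 0.83, of *Hrc* at 0.73, of *Ryr2* at 0.72 and of *Jph2* at 0.47. The correlation was 0.18 for *Trdn*, 0.01 for *Slc8a1*, −0.17 for *Casq2* and −0.44 for *Asph*. These values are a description over 10 libraries, which share scaling and depth. The 5 genes most like *Atp2a2* among all genes tested were *Aldh2* (r = 0.96, Spearman 1.00), *Crebrf* (0.95, Spearman 0.67), *Ggact* (0.94, Spearman 0.95), *Tmed8* (0.94, Spearman 0.82) and *Klhdc1* (0.94, Spearman 0.88). They stayed between 0.88 and 0.92 without the 2 mice farthest from the median, cRADΔ/Δ-MLPKO mice 3 and 4.

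Promoter sequence from RefSeq (GRCm38.p6, the 250 bases before the annotated start) was held for 6 of the 10 SR genes, *Casq2*, *Hrc*, *Jph2*, *Pln*, *Ryr2* and *Slc8a1*. The core letters GATAA of GATA factors, searched on both strands as GATAA and TTATC, were found in 3 of the 6, once in *Hrc* and 2 times each in *Pln* and *Slc8a1*. Of 32851 mouse promoters of this length, 22.6% held at least 1 such match and 4.28% held 2 or more. The letters TGACG or CGTCA, the core of cAMP response elements, were found in none of the 6, against 17.8% of all promoters. The windows of *Pln* (chr10:53337436-53337685, plus strand) and *Slc8a1* (chr17:81738388-81738637, minus strand) are shown because both genes enter a ratio with the pump and both hold 2 matches, marked in capitals. The sequences run 5′ to 3′ on the gene's strand and end at the base before the start.
*Pln*: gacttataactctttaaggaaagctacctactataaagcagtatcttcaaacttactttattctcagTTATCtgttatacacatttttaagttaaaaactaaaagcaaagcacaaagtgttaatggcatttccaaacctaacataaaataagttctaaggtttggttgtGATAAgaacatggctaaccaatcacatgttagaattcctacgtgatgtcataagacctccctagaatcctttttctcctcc
*Slc8a1*: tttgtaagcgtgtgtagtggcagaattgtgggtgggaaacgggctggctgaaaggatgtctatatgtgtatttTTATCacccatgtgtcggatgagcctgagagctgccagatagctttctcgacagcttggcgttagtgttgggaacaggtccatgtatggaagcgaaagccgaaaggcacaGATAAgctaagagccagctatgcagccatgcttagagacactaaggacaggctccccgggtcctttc
The matches begin 183 and 81 bases before the start in *Pln* and 177 and 67 bases before it in *Slc8a1*. A match of 5 letters is a description of the sequence and does not show that a factor binds there.

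The wider calcium machinery was followed in a list of 49 genes, of which 43 were tested. Of these, 2 passed an adjusted p of 0.05 in edgeR, *Hspb6* and *Sypl2*, both lower in cRADΔ/Δ-MLPKO, where 1.8% of all genes passed in that direction. Of the 43 genes, 23 lay below 0 and 20 above 0, with a median log2 fold change of −0.01. None of 13 tested release channels and regulators passed, nor did any of 3 luminal genes or any of 10 genes for extrusion and store-operated entry. One of 8 junction and SR membrane genes passed, and 1 of 9 pump paralogs, micropeptides and pump regulators. DESeq2, which called 9.65% of all genes, called 6 of the 43, adding *Ppp1cb*, *Ppp1r1a*, *Strit1* and *Tmem38b*. Limma-voom, which called 2.53% of all genes, called 3, adding *Strit1*. The list was chosen with earlier results of these data known, so these counts describe it and are no test against the shares of all genes.

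**Figure D4:**
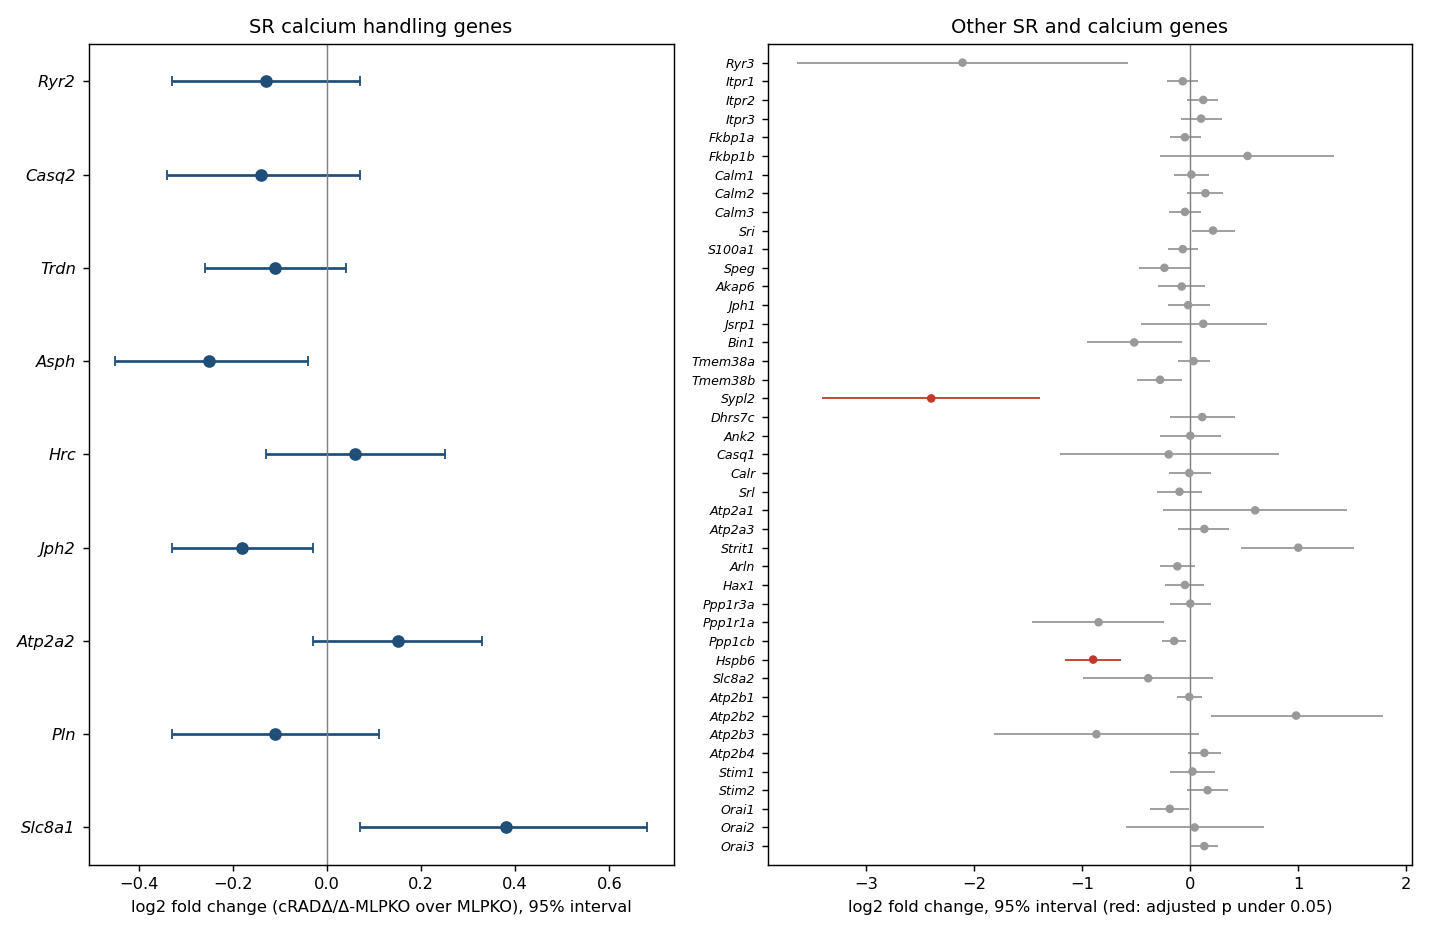
Log2 fold change of cRADΔ/Δ-MLPKO over MLPKO with its 95% interval from edgeR for the 9 tested SR genes (left) and the 43 tested genes of the wider list (right), on separate horizontal axes. Red marks an adjusted p under 0.05, which only *Hspb6* and *Sypl2* reached. The SR genes lie between −0.25 and 0.38, and most genes of the wider list lie near 0.

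*Hspb6* encodes the small heat shock protein Hsp20, a partner of protein phosphatase 1, the enzyme that dephosphorylates phospholamban. It was 1811, 2196, 1780.3, 1559 and 2363 CPM in MLPKO and 1225, 1015, 912, 1064 and 986 CPM in cRADΔ/Δ-MLPKO. Every cRADΔ/Δ-MLPKO mouse lay below every MLPKO mouse. *Hspb6* fell by 0.90 on the log2 scale (SE 0.12, edgeR adjusted p = 0.00783) and passed under each of the 19 alternatives. *Sypl2* encodes mitsugumin 29, a protein of the triad membrane best known from skeletal muscle. It was 4.07, 17.0, 4.97, 3.52 and 5.25 CPM in MLPKO and 2.21, 1.57, 1.04, 0.846 and 0.95 CPM in cRADΔ/Δ-MLPKO, without overlap but with MLPKO mouse 2 far above the rest. The log2 fold change of *Sypl2* was −2.40 (SE 0.46, edgeR adjusted p = 0.026) and −1.76 without MLPKO mouse 2 (adjusted p = 0.0138). The call was lost on leaving out cRADΔ/Δ-MLPKO mouse 2, 3, 4 or 5 or MLPKO mouse 5, with adjusted p between 0.0532 and 0.0736.

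*Strit1* encodes DWORF, a micropeptide that binds SERCA2 and displaces phospholamban. It was 1.02, 0.824, 1.72, 1.57 and 2.03 CPM in MLPKO and 3.32, 2.98, 2.54, 3.30 and 2.26 CPM in cRADΔ/Δ-MLPKO. All cRADΔ/Δ-MLPKO mice were above all MLPKO mice, at a mean of 1.43 ± 0.50 against 2.88 ± 0.468 CPM. The log2 fold change was 1.00 (SE 0.24, 95% interval 0.47 to 1.52), and the edgeR adjusted p of 0.0507 fell just short of the threshold. It was 0.00247 with DESeq2, 0.046 with limma-voom, 0.048 with upper quartile scaling and from 0.0471 (without MLPKO mouse 4) to 0.107 on leaving out single mice. Per kilobase of merged exon, *Strit1* stood at 4.07 CPM per kb in MLPKO and 8.18 in cRADΔ/Δ-MLPKO, against 183 and 169 for *Pln*.

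The paralogs of the SR genes gave no call. *Casq1*, the skeletal muscle calsequestrin, ranged widely, at 171, 202, 119, 34.2 and 186 CPM in MLPKO and 215, 160.2, 45.9, 129 and 72.0 CPM in cRADΔ/Δ-MLPKO (log2 fold change −0.20, SE 0.46, edgeR adjusted p = 0.852). Both genotypes held low and high mice, and the largest and smallest values lay in different genotypes. *Ryr3*, a ryanodine receptor found in many tissues, was 7.95, 66.0, 20.5, 6.27 and 8.10 CPM in MLPKO and 12.2, 4.40, 3.03, 2.18 and 3.55 CPM in cRADΔ/Δ-MLPKO. Its log2 fold change of −2.11 (SE 0.70, edgeR adjusted p = 0.11) was −1.10 without MLPKO mouse 2 (adjusted p = 0.225). *Atp2a3*, the SERCA3 pump of non-muscle cells, was 12.6 ± 1.30 and 13.8 ± 1.90 CPM (log2 fold change 0.13, edgeR adjusted p = 0.533). *Atp2a1*, the fast skeletal pump, was 0.202 ± 0.0851 and 0.307 ± 0.108 CPM (log2 fold change 0.60, edgeR adjusted p = 0.399). *Slc8a2*, a second exchanger, was 2.47 ± 0.756 and 1.88 ± 0.596 CPM (log2 fold change −0.39, edgeR adjusted p = 0.44). *Ryr1* and *Slc8a3* did not exceed 12 counts in any mouse and were not tested.

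**Figure D5:**
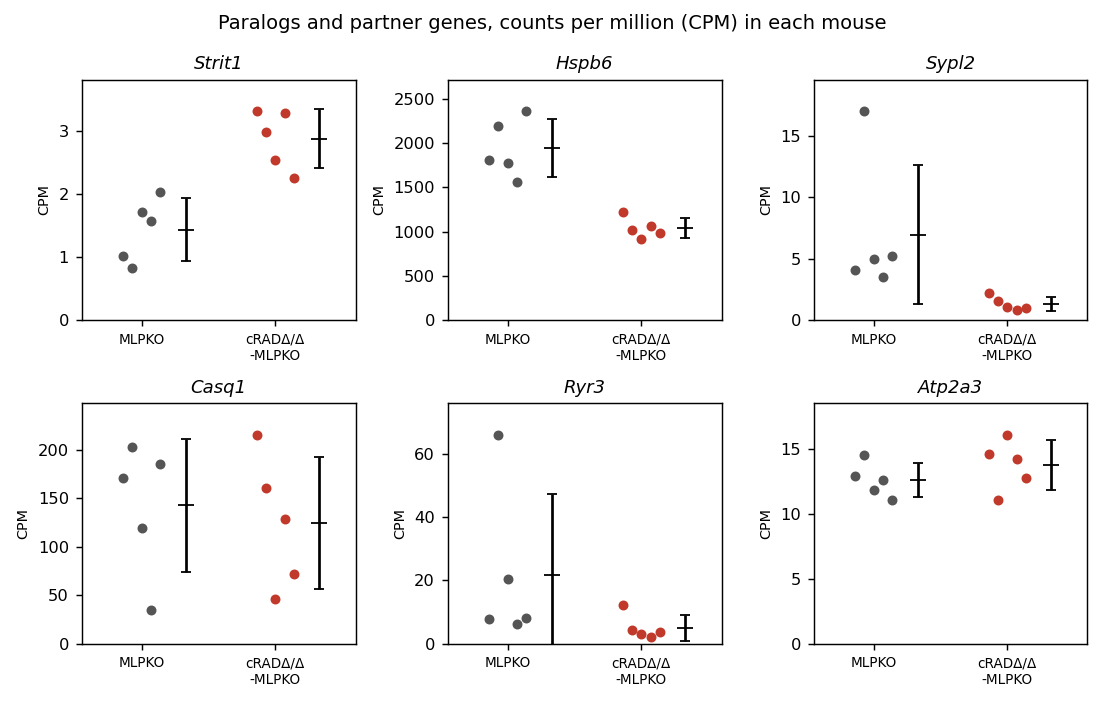
CPM of *Strit1*, *Hspb6*, *Sypl2*, *Casq1*, *Ryr3* and *Atp2a3* in each mouse, each on its own axis from 0, with mean ± SD of 5 mice per genotype. *Strit1*, *Hspb6* and *Sypl2* show no overlap between genotypes, while *Casq1*, *Ryr3* and *Atp2a3* overlap and MLPKO mouse 2 stands out in *Sypl2* and *Ryr3*.

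Marker genes of the cell types of the tissue were summed in each mouse. The 7 ventricular cardiomyocyte markers were all present. They summed to 59701 to 70409.7 CPM in MLPKO and 46332 to 58920.3 CPM in cRADΔ/Δ-MLPKO, without overlap except under upper quartile scaling. *Myh6* was the largest part of this sum, at means of 36497 CPM in MLPKO and 29887 CPM in cRADΔ/Δ-MLPKO, and its mice overlapped. Taken singly, 3 of the 7 markers were without overlap, and 6 of 7 lay below 0, with *Tnni3* above 0 (log2 fold change 0.13). *Tnnt2* (cardiac troponin T) passed (log2 fold change −0.57, SE 0.09, edgeR adjusted p = 0.0185, and 0.0592 without cRADΔ/Δ-MLPKO mouse 5). The 4 endothelial markers summed to 609 to 688 CPM in MLPKO and 704.7 to 828.6 CPM in cRADΔ/Δ-MLPKO, also without overlap. All 4 were higher at an unadjusted p under 0.05 in edgeR, as were 10.1% of all genes. None passed after adjustment in edgeR or limma-voom, while DESeq2, which called 9.65% of all genes, called *Kdr* and *Tie1* (adjusted p = 0.0183 and 0.0205). The 4 macrophage markers summed to 63.8 to 89.6 and 79.1 to 137 CPM, the 4 fibroblast markers to 755 to 1134 and 674 to 1117 CPM, and the 4 smooth muscle markers to 73.6 to 208 and 124 to 273 CPM. All 4 macrophage markers were higher at an unadjusted p under 0.05, with none passing in edgeR and *Adgre1* and *Csf1r* called by DESeq2 (adjusted p = 0.00434 and 0.033), which also called the ventricular markers *Actn2* and *Myh6*. Among the smooth muscle markers, *Acta2* (smooth muscle actin) passed (log2 fold change 1.24, SE 0.29, edgeR adjusted p = 0.0461), a call lost on leaving out any of cRADΔ/Δ-MLPKO mice 1 to 4 or MLPKO mouse 1 or 5 (adjusted p 0.0736 to 0.0958). The other smooth muscle markers did not follow it, with log2 fold changes of −2.17 for *Cnn1* (edgeR adjusted p = 0.103) and 0.01 for *Myh11* (0.988), and *Tagln* was not tested at 2 to 13 counts. MLPKO mouse 2 had 54.4 CPM of *Cnn1*, against 4.39 to 8.27 CPM in the other MLPKO mice and 2.08 to 5.80 CPM in cRADΔ/Δ-MLPKO. The fold change of *Cnn1* without that mouse is not given here. The 7 atrial markers summed to 185 to 2481 and 241 to 514 CPM, of which *Nppa*, which ventricles also express in cardiomyopathy, was the largest part in every mouse (106 to 2435 CPM in MLPKO and 146 to 429 CPM in cRADΔ/Δ-MLPKO), and *Bmp10* did not exceed 4 counts. The 8 skeletal markers summed to 1.16 to 2.99 and 1.38 to 2.27 CPM, with *Myh4* at 0 in all 10 mice and *Myh1* and *Myh2* at 4 counts or fewer. The part of these shifts in the fold changes of the SR genes was not tested.

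Several SR genes share exon sequence with a gene on the other strand, and the strand setting of the counting is not given in the sources used here. For *Pln*, 43.6% of the exon length overlaps *Gm47644*, which had a mean count of 215 against 45246 for *Pln*. For *Atp2a2*, 26.2% overlaps *Gm43361*, with a mean count of 52.5 against 627237. *Asph* shares 12.4% with *Clvs1* (8.2 against 10299.9 counts), and *Trdn* shares 5.61% with *D830005E20Rik* (721 against 15886 counts). In the wider list, *Strit1* shares 24.15% with *Gm37279* (0 against 89.7 counts). *Hspb6* shares 11.8% with *Lin37* (265 against 61568 counts) and 5.05% with *Proser3* (114 counts). Reads in shared sequence may have been left out for both genes, so these counts do not show how many reads a gene lost.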

How the data were processed

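RNA-seq of 5 MLPKO and 5 cRADΔ/Δ-MLPKO mice was analysed. Raw counts per gene were deposited, which the authors had obtained with STAR (GRCm39) and featureCounts and had not normalized. Settings for strand, read pairs and shared reads are not given in the sources used here. Counts from 1 to 20 were even in 73.7% to 80.3% of cases per library. Of 60676 genes in the table, 3491 with no value were left out, and GENCODE M39 named 56629 of the other 57185. The filter asked for over 10 counts in 6 or more of the 10 mice and dropped Gm and Rik names, which left 13453 genes. TMM scaling and the quasi-likelihood test of edgeR 4.0.16 (R 4.3.3) were used with genotype as the only term. The authors used DESeq2, run here as an alternative (1.42.0) beside limma-voom (limma 3.58.1). Other alternatives were RLE and upper quartile scaling, no filter, edgeR's own filter, Gm and Rik genes kept, robust dispersion, the mouse number as a block, and each mouse left out. Ratios of 2 genes were compared by exact permutation over all splits of the mice into 5 and 5 on log2 CPM (prior count 2), with prior counts of 0.5 and 5 as alternatives. Ratios with *Sln* were planned and not formed, because *Sln* lay near the limit of 3 counts, so p was adjusted over 4 ratios, and no likeness was computed for *Sln*. Scripts were tested on simulated data.

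All 10 SR genes, *Rrad*, *Csrp3*, the paralogs and *Strit1* were named whatever their values, with any other gene of the wider list that had an adjusted p under 0.05, and the 5 genes most correlated with *Atp2a2*. Genes called by DESeq2 alone, the overlapping genes and the markers were named after their values were seen. The members and lists were chosen with earlier results of these data known. All per-sample columns were used.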

Additional observations from a re-analysis of the deposited data

Results flagged for a closer look

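In all, 7 values lay far from the other 4 mice of their genotype by Dixon's 95% criterion, among 52 groups of 5 mice examined over 26 genes, where chance gives about 1 in 20. *Pln* in MLPKO mouse 2 was 869 CPM, against 1160 to 1220 CPM in the other MLPKO mice. *Hrc* in the same mouse was 851 CPM, against 1080 to 1150 CPM. *Ryr3* in MLPKO mouse 2 was 66.0 CPM, against 6.27 to 20.5 CPM, and *Sypl2* in that mouse was 17.0 CPM, against 3.52 to 5.25 CPM. *Ryr3* in cRADΔ/Δ-MLPKO mouse 1 was 12.2 CPM, against 2.18 to 4.40 CPM. *Slc8a3* was 0.265 CPM in MLPKO mouse 5, against 0.0395 to 0.0634 CPM, and 0.271 CPM in cRADΔ/Δ-MLPKO mouse 5, against 0 to 0.0546 CPM, each value resting on 12 counts. Of the 7, 4 belong to MLPKO mouse 2, the mouse that stood apart on the first principal component, and the results without it are given beside each gene in the report.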

How the results depend on the processing

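No SR gene passed an adjusted p of 0.05 under any of 19 alternatives, and 170 of 171 fits of the 9 genes kept their direction. The exception was *Hrc*, at −0.01 without MLPKO mouse 2. *Casq1* ranged from −0.49 to 0.02 on leaving out single mice and was above 0 only without cRADΔ/Δ-MLPKO mouse 3. The log2 *Casq2*/*Ryr2* difference ranged from −0.08 to 0.05 on leaving out single mice and was above 0 without MLPKO mouse 1 (0.02), MLPKO mouse 2 (0.05), cRADΔ/Δ-MLPKO mouse 4 (0.04) or mouse 5 (0.01). The *Pln*/*Atp2a2* difference ranged from −0.31 to −0.23, and passed only without MLPKO mouse 2. With DESeq2, 6 genes of the wider list, 8 cell type markers and 1298 genes in all were called, against 2, 2 and 369 with edgeR. Leaving out single mice gave 1 to 3 genes of the wider list, 1 to 6 markers, and from 43 genes in all (without MLPKO mouse 5) to 826 (without MLPKO mouse 4). The cause was not tested. Limma-voom and robust dispersion each called 1 marker, *Tnnt2*. The mouse numbers are shared by different animals, and same-numbered mice deviated with correlations of −0.0442 to 0.152, so they were not taken as pairs. The replicate block called 0 SR genes, 2 of the wider list, 1 marker and 281 genes in all. With same-numbered mice as pairs, the adjusted p of *Pln*/*Atp2a2* over sign flips was 0.125. Sign flips of 5 pairs cannot give a two-sided p under 0.05, so this run could not pass whatever the values. No scaling moved the median of all genes by over 0.1.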
